A study of Homo sapiens with 9 samples.

Results

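A set of genes that decide whether a cell enters apoptosis were followed across 3 groups of HL-60 clone 15 cells, a human promyelocytic leukaemia line used as a model of eosinophil precursors. They were BCL2, MCL1, BCL2A1, BCL2L11, BMF, BBC3, PMAIP1, BAX, APAF1 and BIRC2, and they are 10 of the 14778 named genes tested. They were chosen by name among apoptosis genes whose symbol a probe set of the array carries, with earlier results of these data known. The cells were transduced with a lentiviral construct, inducible by 4-hydroxytamoxifen (4-OHT), that carried either RHOH, a gene expressed in blood cells, or GFP, a fluorescent control protein. Total RNA was measured on 9 arrays: 3 of RhoH cells without 4-OHT (uninduced), 3 of RhoH cells with 100 nM 4-OHT (induced) and 3 of GFP cells with 100 nM 4-OHT. All groups share the same parent line and carry a construct, no GFP cells without 4-OHT were analysed here, and whether each transduced population is a clone or a pool is not given in the sources used here. A difference between induced and uninduced RhoH cells therefore holds the effect of the drug as well as that of the construct. A difference from GFP cells holds that of the transduced population and of the gene carried, and for uninduced RhoH cells also that of the drug. These cannot be told apart. The 3 arrays of a group are biological replicates per the series' design text.

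The BCL2 family controls the permeability of the outer mitochondrial membrane. The anti-apoptotic proteins BCL2, MCL1 and BCL2A1 (also called BFL-1) hold BAX and its relatives in check. The BH3-only proteins BIM (encoded by BCL2L11), BMF, PUMA (encoded by BBC3) and NOXA (encoded by PMAIP1) bind and neutralise them or activate BAX directly. Once BAX forms pores, cytochrome c reaches the cytosol and binds APAF1, which assembles the apoptosome and activates caspase-9. BIRC2 (cIAP1) is a ubiquitin ligase that restrains cell death downstream of the TNF receptor and controls non-canonical NF-kB signalling. BCL2L11 is a textbook target of FOXO transcription factors, and BBC3, PMAIP1, BAX and APAF1 are textbook targets of p53, which HL-60 cells lack.

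Promoters of 5 of the genes are shown first, so that their sequence can be set beside the values. RefSeq gave 11 promoters for 9 of the 10 genes on GRCh38.p14, with a pair of start sites each for BMF and BIRC2. The window was the 250 bases before the gene start. BCL2L11 and APAF1 are printed because they were called higher with 4-OHT, the former less firmly. BCL2 and BIRC2 are printed because they were called against GFP cells in both RhoH groups. BBC3 is printed for contrast. It was called in no comparison, as were BMF, PMAIP1 and BAX, which are not printed. Capitals mark matches on either strand to the FOXO core TGTTTAC, the AP-1 element TGANTCA, the ETS element GAGGAAGT, the E2F element TTTNGCGC and a loose NF-kB pattern (GGG and CC with any 5 bases between them), where overlapping matches run together.
BCL2L11 promoter, chr2:111120664-111120913, plus strand: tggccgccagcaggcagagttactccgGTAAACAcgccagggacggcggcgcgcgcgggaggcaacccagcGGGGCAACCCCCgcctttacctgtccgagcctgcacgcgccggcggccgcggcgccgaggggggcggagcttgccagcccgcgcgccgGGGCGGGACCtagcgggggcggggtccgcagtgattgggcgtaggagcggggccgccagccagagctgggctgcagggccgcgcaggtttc
APAF1 promoter, chr12:98645040-98645289, plus strand: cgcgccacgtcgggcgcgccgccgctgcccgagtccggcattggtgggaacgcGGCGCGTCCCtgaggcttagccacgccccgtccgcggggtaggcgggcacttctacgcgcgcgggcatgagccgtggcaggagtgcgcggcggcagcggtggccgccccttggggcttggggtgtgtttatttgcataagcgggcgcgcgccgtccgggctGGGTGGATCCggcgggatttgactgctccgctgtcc
BCL2 promoter, chr18:63319770-63320019, minus strand: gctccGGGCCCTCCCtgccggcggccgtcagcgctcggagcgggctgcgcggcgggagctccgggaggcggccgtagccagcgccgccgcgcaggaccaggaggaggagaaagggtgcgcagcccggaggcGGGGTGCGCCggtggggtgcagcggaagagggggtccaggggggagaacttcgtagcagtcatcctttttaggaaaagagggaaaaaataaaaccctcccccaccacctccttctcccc
BIRC2 promoter (the first of its start sites), chr11:102346964-102347213, plus strand: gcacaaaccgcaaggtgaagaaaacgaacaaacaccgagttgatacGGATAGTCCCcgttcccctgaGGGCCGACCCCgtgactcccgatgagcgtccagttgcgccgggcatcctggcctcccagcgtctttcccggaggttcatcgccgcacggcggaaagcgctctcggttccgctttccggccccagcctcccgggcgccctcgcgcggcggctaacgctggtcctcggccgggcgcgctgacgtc
BBC3 promoter, chr19:47232668-47232917, minus strand: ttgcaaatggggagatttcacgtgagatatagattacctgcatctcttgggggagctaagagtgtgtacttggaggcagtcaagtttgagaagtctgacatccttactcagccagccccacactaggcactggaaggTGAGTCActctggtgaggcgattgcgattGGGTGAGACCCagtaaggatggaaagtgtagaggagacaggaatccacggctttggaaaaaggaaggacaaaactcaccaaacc
The BCL2L11 promoter was the only one of the 11 with the FOXO core, which 2.98% of all 35116 promoters of this length held, in the reverse orientation (GTAAACA) starting at position -223 from the gene start. The AP-1 element (TGAGTCA) was in the BBC3 promoter, starting at position -113, and in 6.57% of all promoters. The ETS element was in the BCL2A1 promoter and in 2.17% of all. The E2F element was in none of the 11 and in 1.51% of all. The NF-kB pattern was in 8 of the 11 promoters (of 7 of the 9 genes), but 54.4% of all promoters held it. The BCL2L11, APAF1, BCL2 and BIRC2 windows shown were rich in G and C (76.8%, 73.6%, 70.0% and 67.6%), above the median of 58.0% over all promoters, and the BBC3 window was not (49.2%). Windows not shown had 73.2% (the other BIRC2 start site), 72.8% (PMAIP1), 65.2% and 48.8% (BMF), 62.8% (BAX) and 38.8% (BCL2A1). Shares above and below the median thus occurred among both called and uncalled genes. These matches are a description of letters and were not tested for binding.

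The arrays were compared first as whole libraries. The median probe set had a log2 signal of 5.43 to 5.55 per array, and the number of arrays limits the precision. The arrays labelled replicate 1 of both RhoH groups stood apart from the others of their groups, as did induced replicate 3 (array weights of 0.267 to 0.334, against 1.25 to 2.61 for the other 6), so calls were also computed without the 2 replicate 1 arrays. RHOH itself was higher in the arrays labelled induced than in those labelled uninduced but not highest there: its log2 signal was 5.21 ± 0.06 (SD, n = 3) uninduced, 5.59 ± 0.14 induced and 5.93 ± 0.02 in GFP cells. The RHOH signal is dim (percentile 26.1 to 41.1 of the tested genes), and directions are given by the labels throughout. These arrays thus do not show more RHOH in induced RhoH than in GFP cells, and "induced" below names the label only. Whether this probe set reads the construct, and whether the labels are right, was not tested. Of the granulocyte precursor markers 5 of 8 were measured, and all 5 lay above the median gene in each group, with group means of MPO, the myeloperoxidase of this lineage, from 12.20 to 13.39. Their summed log2 signal was 51.63 to 51.77 on the GFP arrays, 56.36 to 57.97 on the induced and 58.21 to 58.30 on the uninduced RhoH arrays, so no groups overlapped. Of these 5, 4 were called higher in each RhoH group than in GFP cells. SPI1 was not, with its highest mean in GFP cells (9.29, against 9.17 induced and 9.07 uninduced). For EPX and CLC, the 2 of 6 eosinophil markers measured, the sum was 13.97 to 14.14 in GFP cells, 16.98 to 18.68 in induced and 17.71 to 19.25 in uninduced RhoH cells. For 4 of 5 monocyte markers the sum was 27.89 to 28.61 in GFP cells, 25.88 to 27.20 in induced and 25.00 to 25.92 in uninduced RhoH cells. Of these 4, CD14 and CD68 were called lower in uninduced RhoH than in GFP cells. CSF1R (6.63 and 6.95) and the dim CD163 (4.26 and 4.05) were not. In induced RhoH cells only CD14 was called lower than in GFP cells (-1.35, limma adjusted p = 0.00726), and CD68 was not (-0.30, adjusted p = 0.26). With 4-OHT in RhoH cells 1 of the 5 granulocyte precursor markers fell (CTSG, cathepsin G, -0.83, adjusted p = 0.00703, and -0.79 with adjusted p = 0.0541 without the replicate 1 arrays) and 1 of the 4 monocyte markers rose (CD68, a lysosomal protein, 1.11, adjusted p = 0.000834). This is the comparison in which APAF1 and BCL2L11 rose. In bulk samples fewer cells of a type and less RNA per cell cannot be told apart. The part of these marker differences in the results below was not tested. Lymphoid and erythroid or megakaryocyte lists had 1 measured gene each (NKG7 and PF4) and identify no cell type here.

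**Figure D1:**
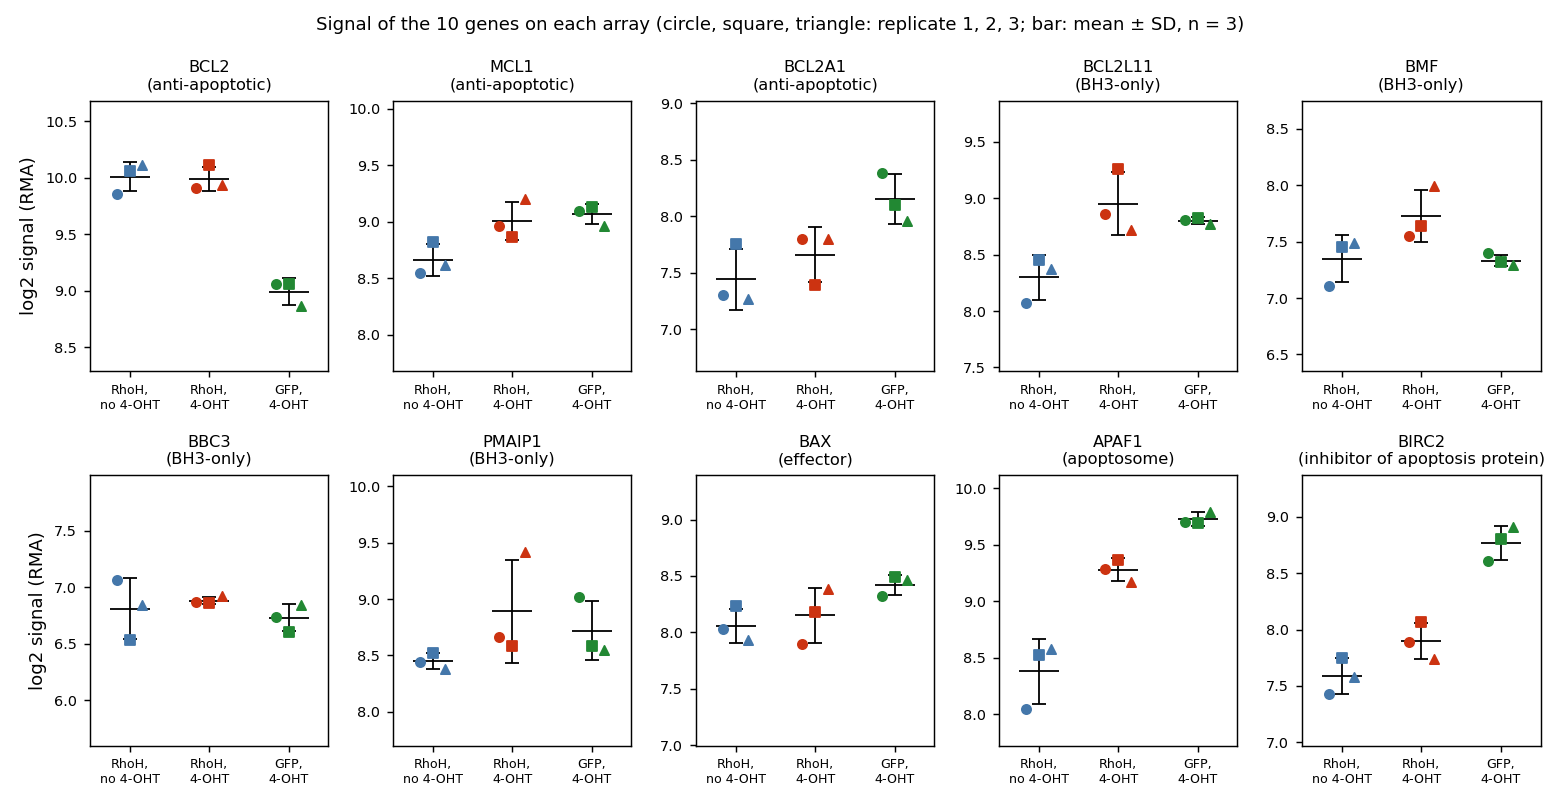
Log2 signal (RMA) of each of the 10 genes on each of the 9 arrays; colours and positions mark the 3 groups, the symbol shape the replicate number, and bars the mean ± SD of 3 arrays. All panels span the same number of log2 units, so that BCL2 is seen to be 1 log2 unit higher in both RhoH groups than in GFP cells while APAF1 climbs from 8.38 to 9.28 to 9.73 across the 3 groups.

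APAF1 and BCL2L11 were called higher with 4-OHT in RhoH cells, and none of the 10 was called lower. The APAF1 call held in all 19 alternative fits, and the BCL2L11 call was lost in 11 of them. Of the tested 14778 genes 3.78% were called in that comparison, 3.02% higher (447) and 0.751% lower (111), a split of 588 and 365 after a second quantile normalization. The median difference of the 10 was 0.33 and that of all genes 0.00, and 9 of the 10 differences were above 0. For 5 of the 10 the groups did not overlap, all 5 higher when induced, against 14.5% of all genes (8.90% higher and 5.64% lower).

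Compared with GFP cells, induced RhoH cells had BCL2 higher and BIRC2 lower, where 1.74% of all genes were called higher and 2.75% lower (4.49% together, 257 and 407 genes, and 439 and 509 after a second quantile normalization). For 6 of the 10 these groups did not overlap, 3 higher and 3 lower, against 22.5% of all genes (11.1% higher and 11.4% lower). The median was 0.05, against 0.03 over all genes, with BCL2 and the 4 BH3-only genes above 0 and the other 5 below it. Uninduced RhoH cells had BCL2 higher and 5 of the 10 lower than GFP cells (MCL1, BCL2A1, BCL2L11, APAF1 and BIRC2), where 6.01% of all genes were called higher and 9.27% lower (15.3% together, 888 and 1370 genes). That split was 1342 and 1456 after a second quantile normalization and 2358 and 1968 with array weights. For 8 of the 10 the groups did not overlap, 1 higher and 7 lower, against 37.3% of all genes (19.2% higher and 18.1% lower). Their median was -0.38, against 0.05 over all genes. At an unadjusted p under 0.05 the count was 5, 5 and 7 of the 10 in the 3 comparisons, against 14.5%, 16.4% and 25.8% of all genes. Each group's arrays serve in 2 of the 3 comparisons, so these counts are not independent. The 10 were chosen with earlier results of these data known, so their counts beside those of all genes are a description only. With 3 arrays against 3 the two-sided exact permutation test of a single gene cannot go below 0.1, which each gene without overlap reached.

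BCL2 was called higher in both RhoH groups than in GFP cells, and was not called with 4-OHT in RhoH cells. This founding member of the family, which blocks release of cytochrome c, had log2 signals of 9.86, 10.06 and 10.11 on the uninduced RhoH arrays, 9.91, 10.11 and 9.94 on the induced arrays and 9.06, 9.06 and 8.86 on the GFP arrays. Every RhoH array was thus above every GFP array, and the RhoH groups overlapped. The difference from GFP cells was 2.02-fold uninduced (log2 1.01, SE 0.10, limma adjusted p = 0.000116) and 1.99-fold induced (0.99, SE 0.10, adjusted p = 0.000550). Between induced and uninduced cells it was -0.02 (95% interval -0.25 to 0.21, adjusted p = 0.969). Of the 10 genes it was the only one called higher in either RhoH group than in GFP cells. Without the replicate 1 arrays both differences from GFP remained past the threshold, at 1.09 and 1.03.

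MCL1 and BCL2A1 were called lower in uninduced RhoH than in GFP cells, and not in induced cells. MCL1, a short-lived protein on which many myeloid cells depend, had log2 signals of 8.55, 8.82 and 8.62 uninduced, 8.96, 8.87 and 9.20 induced and 9.10, 9.13 and 8.96 in GFP cells. The uninduced arrays were the lowest and did not overlap with either other group, while the induced and GFP arrays did overlap. MCL1 was 1.32-fold lower in uninduced RhoH than in GFP cells (log2 -0.40, SE 0.11, adjusted p = 0.0364), and its difference with 4-OHT of 0.35 (SE 0.11) did not pass (adjusted p = 0.151). The call against GFP was lost in 8 of 19 alternatives (adjusted p from 0.00431 to 0.137), among them the replicate block (0.0510), the fit without both replicate 1 arrays (0.102) and those without uninduced replicate 1 (0.107) or 3 (0.112) or without any 1 GFP array (0.0630 to 0.137).

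BCL2A1 is an NF-kB-inducible relative of BCL2 in myeloid cells. Its log2 signals were 7.30, 7.75 and 7.27 uninduced, 7.80, 7.39 and 7.80 induced and 8.38, 8.10 and 7.96 in GFP cells. All GFP arrays lay above all RhoH arrays, and the RhoH groups overlapped. The difference from GFP was -0.71 uninduced (SE 0.17, 1.63-fold lower, adjusted p = 0.0187) and -0.48 induced (SE 0.17, adjusted p = 0.178). The uninduced call was lost in 5 of 19 alternatives (adjusted p from 0.00378 to 0.0827), namely without both replicate 1 arrays (0.0696), without uninduced replicate 1 (0.0673) or 3 (0.0752) and without GFP replicate 1 (0.0827) or 2 (0.0581).

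Among the BH3-only genes, BCL2L11 rose with 4-OHT in RhoH cells. BIM, its product, binds all anti-apoptotic relatives and is set largely by its own level. Log2 signals were 8.07, 8.45 and 8.37 uninduced, 8.86, 9.26 and 8.72 induced and 8.81, 8.82 and 8.77 in GFP cells. Every uninduced array was below every array of the other groups, and the induced arrays spread around the tightly grouped GFP arrays. The rise was 1.57-fold (log2 0.65, SE 0.14, adjusted p = 0.0361). Uninduced cells were 1.42-fold below GFP cells (-0.50, SE 0.14, adjusted p = 0.0413), and induced cells differed from GFP by 0.15 (95% interval -0.18 to 0.47, adjusted p = 0.672). The size of the rise stayed between 0.49 and 0.76 over 19 alternatives, but the call was lost in 11 of them (adjusted p from 0.00357 to 0.157), among them every fit without 1 array except that without induced replicate 3, and the fit without both replicate 1 arrays (0.58, adjusted p = 0.114). The call against GFP was lost in 8 of 19 (0.00366 to 0.131), including the fits without uninduced replicate 1 (0.131) or 3 (0.0798) or any 1 GFP array (0.107 to 0.127), and without both replicate 1 arrays the value was -0.39 (0.124).

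BMF and PMAIP1 had their highest means in induced RhoH cells, and neither passed the test. BMF, whose protein is held on the cytoskeleton until cells detach or are stressed, had log2 signals of 7.11, 7.45 and 7.49 uninduced, 7.55, 7.64 and 7.99 induced and 7.40, 7.32 and 7.29 in GFP cells. The induced arrays did not overlap with either control. The differences were 0.38 from uninduced (SE 0.14, adjusted p = 0.208) and 0.39 from GFP cells (SE 0.14, adjusted p = 0.173). The latter passed the threshold in 2 of 19 alternatives, a second quantile normalization (0.43, adjusted p = 0.0258) and the fit without both replicate 1 arrays (0.48, adjusted p = 0.0457), with adjusted p up to 0.490 in the others. BMF was the only one of the 10 with another named probe set. That dimmer probe set, with group means of 5.24 uninduced, 5.27 induced and 5.16 in GFP cells, differed by 0.03 with 4-OHT (SE 0.21, adjusted p = 0.986 over all probe sets). Whether the differences of the 2 probe sets differ from each other was not tested.

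PMAIP1 encodes NOXA, which binds MCL1 and BCL2A1 with preference and promotes the degradation of MCL1. Its log2 signals were 8.44, 8.52 and 8.38 uninduced, 8.66, 8.58 and 9.42 induced and 9.02, 8.58 and 8.55 in GFP cells. Induced replicate 3 alone stood far above the others of its group. The difference with 4-OHT was 0.44 (SE 0.21, 95% interval -0.03 to 0.90, adjusted p = 0.389), and it was 0.17 without induced replicate 3 and 0.55 (adjusted p = 0.399) without both replicate 1 arrays.

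BBC3 and BAX passed in no comparison. BBC3, which encodes the p53-inducible PUMA, had log2 signals of 7.06, 6.53 and 6.84 uninduced, 6.87, 6.86 and 6.92 induced and 6.74, 6.60 and 6.84 in GFP cells. Its uninduced arrays spanned the range of the other groups, and its 3 differences lay between 0.07 and 0.16 with 95% intervals from -0.22 to 0.45. BAX, the pore-forming effector, had log2 signals of 8.03, 8.23 and 7.93 uninduced, 7.90, 8.18 and 8.38 induced and 8.32, 8.49 and 8.46 in GFP cells. The uninduced arrays lay below the GFP arrays without overlap, by -0.36 (SE 0.13, adjusted p = 0.102). That difference passed in 3 of 19 alternatives (adjusted p from 0.00618 to 0.281), one of them the fit without induced replicate 1 (0.0446). With 4-OHT BAX differed by 0.09 (95% interval -0.20 to 0.38). Without both replicate 1 arrays BAX and BBC3 were again called in no comparison, and each differed by 0.20 with 4-OHT (adjusted p = 0.507 and 0.502).

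APAF1 had the largest response of the 10 to 4-OHT in RhoH cells, and the largest difference between uninduced RhoH and GFP cells. Its log2 signals were 8.05, 8.52 and 8.58 uninduced, 9.29, 9.37 and 9.17 induced and 9.70, 9.69 and 9.79 in GFP cells. No array of any group overlapped with another group, and the order was uninduced, induced, GFP. The rise with 4-OHT was 1.86-fold (log2 0.90, SE 0.13, adjusted p = 0.00532). Uninduced cells were 2.54-fold below GFP cells (-1.34, SE 0.13, adjusted p = 9.96e-05). Induced cells remained below GFP cells by -0.45 (SE 0.13), which did not pass (adjusted p = 0.110) but did in 4 of 19 alternatives (0.0148 to 0.328), among them the fits without uninduced replicate 1 (0.0148) and without both replicate 1 arrays (-0.46, adjusted p = 0.0241). The rise held in all 19 (adjusted p from 0.00128 to 0.0455). Uninduced replicate 1 was the lowest array, and without both replicate 1 arrays the rise was 0.72 (adjusted p = 0.00947).

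BIRC2 was called lower in both RhoH groups than in GFP cells, and was not called with 4-OHT in RhoH cells. Log2 signals were 7.43, 7.75 and 7.58 uninduced, 7.89, 8.07 and 7.74 induced and 8.61, 8.80 and 8.91 in GFP cells. The GFP arrays stood clear of all RhoH arrays, and the RhoH groups overlapped at their edges. BIRC2 was 2.28-fold lower than in GFP cells uninduced (log2 -1.19, SE 0.12, adjusted p = 0.000127) and 1.83-fold lower induced (-0.87, SE 0.12, adjusted p = 0.00352). Both held in all 19 alternatives. The difference with 4-OHT was 0.31 (SE 0.12, adjusted p = 0.261).

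**Figure D2:**
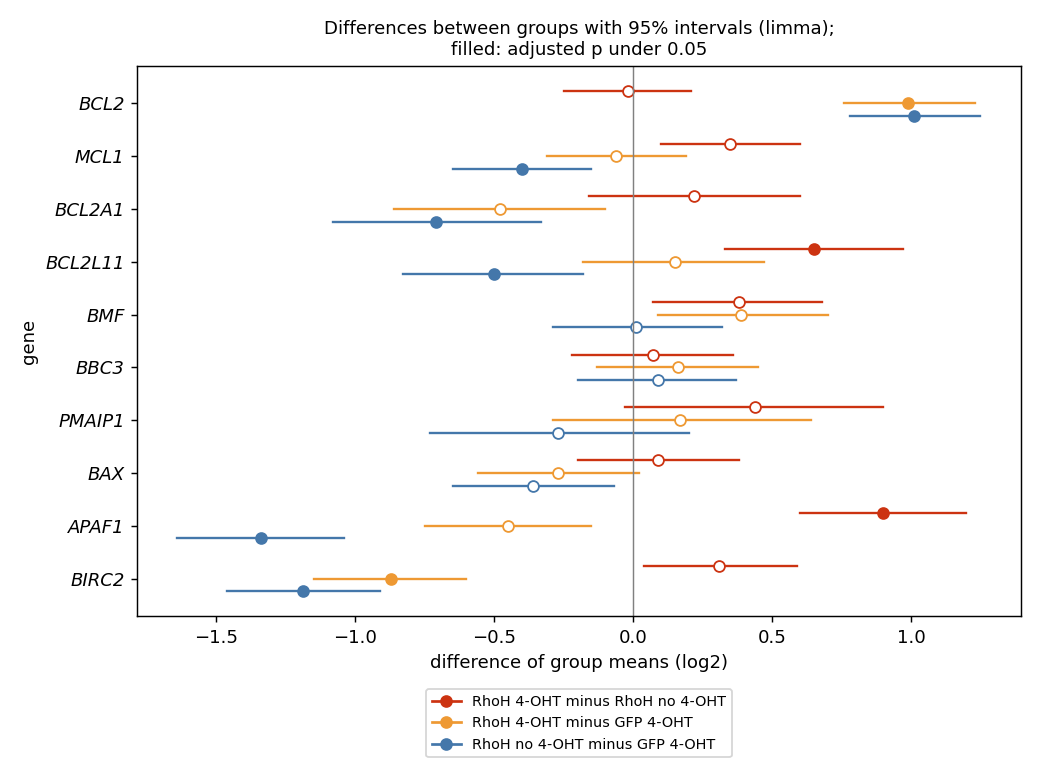
Differences of group means (log2, x axis) for each gene (y axis) in the 3 comparisons, with 95% intervals from limma; filled points have an adjusted p under 0.05. BCL2 is the only gene with filled points to the right in the comparisons with GFP, at 0.99 and 1.01, and APAF1 and BCL2L11 are the only filled points for 4-OHT in RhoH cells, at 0.90 and 0.65.

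The order of the group means was uninduced, induced, GFP from low to high for 5 of the 10 (MCL1, BCL2A1, BAX, APAF1 and BIRC2), an order that 20.6% of all genes had. Among those 5, neighbouring groups were past the threshold only for APAF1 between uninduced and induced and for BIRC2 between induced and GFP cells. BCL2L11 and PMAIP1 ran from uninduced through GFP to induced, BMF and BBC3 from GFP through uninduced to induced, and BCL2 alone had GFP lowest and uninduced highest. No gene of the 10 had its lowest mean in induced cells, where the orders with induced lowest were held by 11.8% and 9.68% of all genes. Some orders rest on small differences, such as that of BCL2 (9.99 induced and 10.01 uninduced). Over the 3 comparisons 6 of the 10 genes were called at least once, against 15.8% of all genes, and BMF, BBC3, PMAIP1 and BAX were not. By mean signal all 10 ranked in the brighter part of the tested genes (percentiles 55.3 to 95.4), away from the dim end, where RMA compresses differences.

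**Figure D3:**
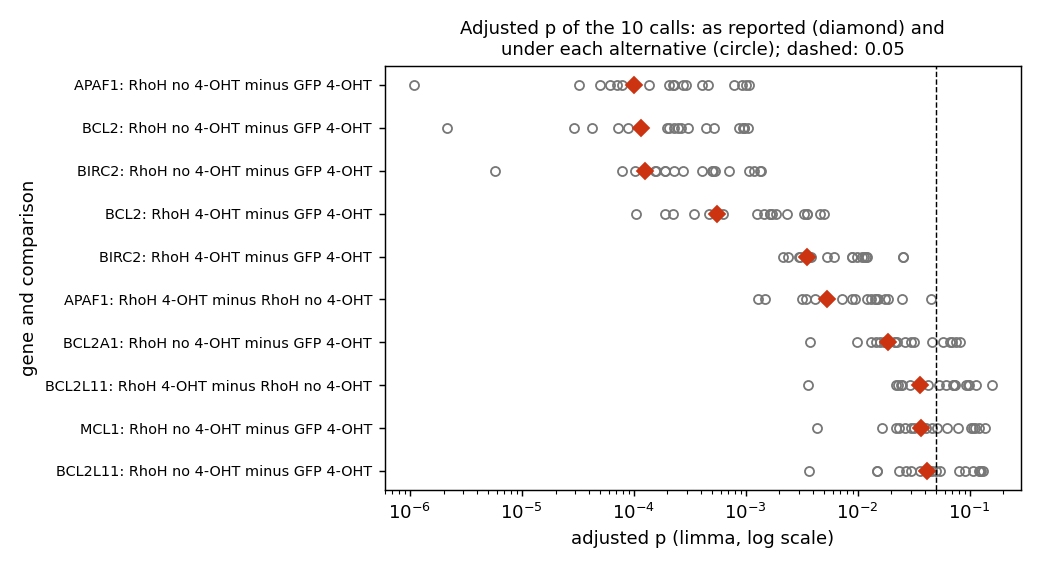
Adjusted p from limma (x axis, log scale) of the 10 calls among these genes, named on the y axis; diamonds are the reported fit, circles the 19 alternatives and the dashed line is 0.05. The 6 upper calls stay left of the line in every alternative, and those of BCL2A1, MCL1 and BCL2L11 cross it in some.

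Other genes of the same machinery were read from lists of 10 functional groups. These lists were drawn up with earlier results of these data known. Of 73 listed genes beyond the 10, 33 were measured by name, and the caspases were not analysed here. With 4-OHT in RhoH cells 2 of the 33 were called, 1 higher and 1 lower, against 3.78% of all genes, with a median of 0.01 against 0.00. Both were transcription factors upstream of cell death: JUN, a subunit of AP-1, rose by 3.60 (adjusted p = 3.99e-05) and MYC, which sensitises cells to apoptosis, fell by 0.85 (adjusted p = 0.00287). No other measured relative of the BCL2 family was called in that comparison. FOXO1 and FOXO3 differed by -0.03 and -0.10 (adjusted p = 0.963 and 0.863).

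In uninduced RhoH against GFP cells 9 of the 33 were called, 1 higher and 8 lower, where 15.3% of all genes were called, 9.27% lower. Their median was -0.06, against 0.05 over all genes. In induced RhoH against GFP cells 5 of the 33 were called, 2 higher and 3 lower, where 4.49% of all genes were called, and their median was -0.07, against 0.03. Without both replicate 1 arrays the counts were 3 with 4-OHT, 11 in uninduced (4 higher and 7 lower) and 5 in induced cells, and of the calls given here that of BAK1 was lost (-0.52, adjusted p = 0.0648) and the other 15 held. The anti-apoptotic BCL2L1, which encodes BCL-XL, was lower in uninduced cells by a log2 difference of -0.79 (adjusted p = 0.00153), so that of 5 measured anti-apoptotic genes 1 was higher (BCL2) and 3 were lower, and BCL2L10 was not called (0.09, adjusted p = 0.601). BAK1, the partner effector of BAX, was at -0.65 (adjusted p = 0.0471), and BID, the BH3-only protein that links death receptors to mitochondria, at -0.41 (adjusted p = 0.00656). BID alone of these was also called in induced cells (-0.41, adjusted p = 0.0183). Of 5 measured inhibitor of apoptosis genes only BIRC2 was called in any comparison, and XIAP, the direct caspase inhibitor, differed by -0.22 uninduced (adjusted p = 0.253) and 0.00 induced (adjusted p = 0.999). HTRA2 and ENDOG, mitochondrial death factors, and FADD, TRADD and CFLAR of the death receptor pathway were called in none. Without both replicate 1 arrays, HTRA2 (0.47, limma adjusted p = 0.0367), the BH3-only BIK (0.70, adjusted p = 0.0318) and TP73 (0.29, adjusted p = 0.0332) passed as higher in uninduced RhoH than in GFP cells. RRM2B, a p53 target gene, then passed as higher with 4-OHT in RhoH cells (0.66, adjusted p = 0.00556, and 0.58 with adjusted p = 0.0878 over all arrays).

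Of 6 measured p53 target genes, 3 were lower in uninduced RhoH than in GFP cells and none higher, where 9.27% of all genes were called lower. They were TP53INP1 (-2.92, adjusted p = 3.91e-06), the stress-inducible SESN1 (-1.15, adjusted p = 8.53e-06) and RRM2B of nucleotide synthesis (-0.80, adjusted p = 0.00730). TP53INP1 (-2.71, adjusted p = 4.74e-05) and SESN1 (-0.89, adjusted p = 0.000224) were also lower in induced cells. Of the p53 targets among the 10, APAF1 was lower in uninduced than in GFP cells, and BBC3, PMAIP1 and BAX were not called. RELA, an NF-kB subunit, was lower in uninduced cells (-0.39, adjusted p = 0.0298), and TP73 (0.45, adjusted p = 0.0214) and MYC (0.76, adjusted p = 0.00469) were higher in induced RhoH than in GFP cells. MYC was also higher (1.61, adjusted p = 9.37e-06) and JUN lower (-4.27, adjusted p = 2.78e-06) in uninduced cells.

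**Figure D4:**
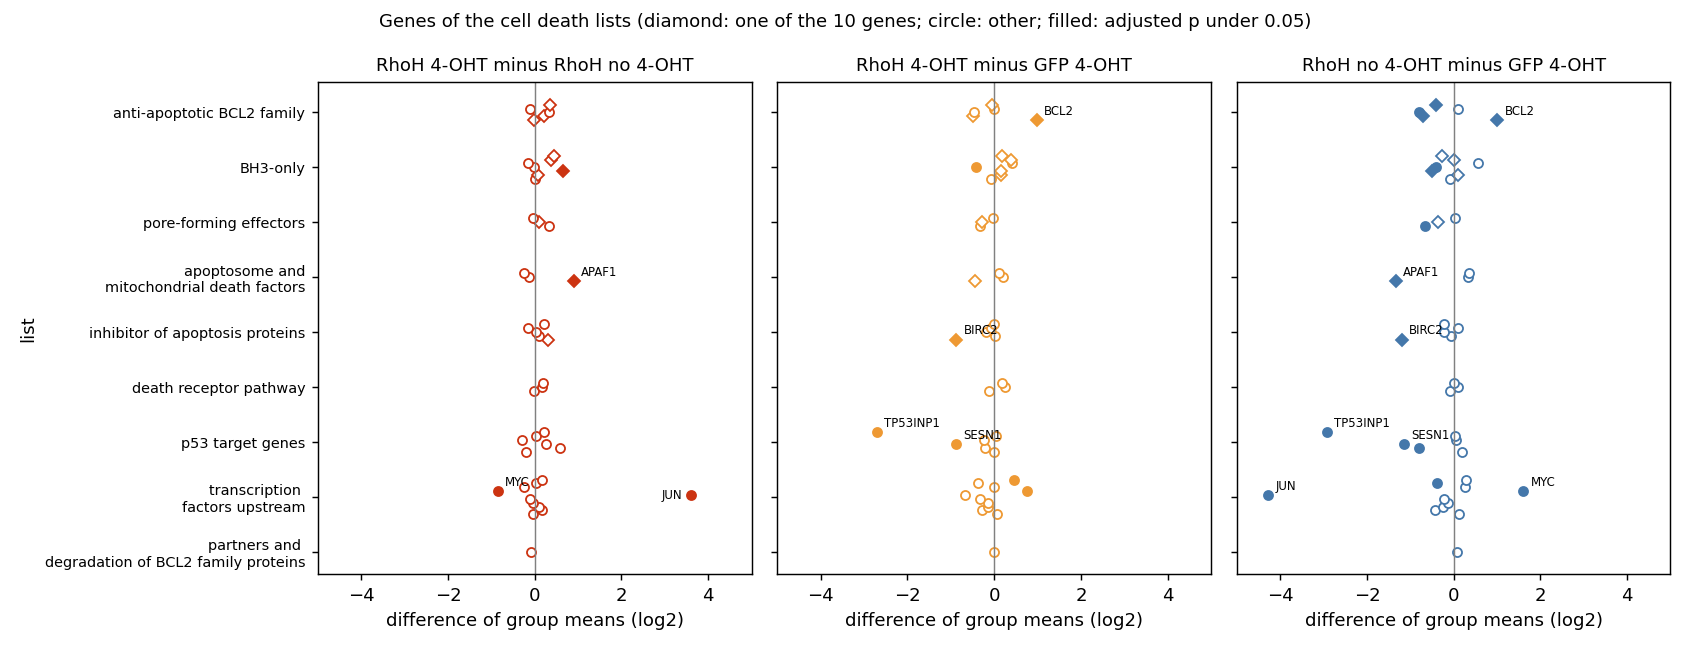
Differences of group means (log2, x axes) of every measured gene in the cell death lists (y axis), 1 panel per comparison; diamonds are the 10 genes, circles the others, and filled symbols have an adjusted p under 0.05. Most genes lie near 0 in each panel, and the symbols farthest from 0 are JUN (3.60 with 4-OHT and -4.27 in uninduced RhoH against GFP cells) and TP53INP1 (-2.92 and -2.71 against GFP cells).

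The genes whose signal followed the 2 that rose most closely were found over the 9 arrays, which fall into 3 groups, so the likeness mostly describes the group means and carries no p. For APAF1 these were NDC80, a kinetochore protein (Pearson r = 0.996), SMAD2, a transducer of TGF-beta signals (0.994), and FYB1, an adaptor protein of blood cells (0.993). Their group means ran in the same order as APAF1, for SMAD2 10.76 uninduced, 11.30 induced and 11.59 in GFP cells. For BCL2L11 they were NEMP2 (0.956), the dynactin subunit DCTN4 (0.956) and the transcriptional repressor ETV6 (0.947), with means of ETV6 of 10.46, 10.78 and 10.64.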

How the data were processed

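Each sample was measured on 1 Affymetrix whole-transcript array. The authors deposited 1 table of log2 values for 43550 probe sets. The submitters' processing notes name Affymetrix Power Tools, RMA and limma without versions. RMA corrects background, quantile-normalizes and summarises per probe set, so no further normalization was applied. A platform table gave 1 gene symbol for 15659 probe sets, updated through Entrez identifiers (RefSeq, GRCh38.p14). The other 27891 had no symbol there or more than 1, were not counted apart, and were not used by name. The probe set with the highest mean over the 9 arrays stood for a gene, which left 14778 genes.

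Groups and replicates came from the sample titles. The 3 comparisons were fitted with limma 3.58.1 in R 4.3.3 as 3 group means over all 9 arrays, with Benjamini-Hochberg adjustment over all genes and a threshold of 0.05. The code of the fit was run on simulated data with independent noise of equal spread on all arrays. That run covers neither the low-weight arrays nor the shared deviations of these data. The 10 genes, the lists, the motifs and the markers were chosen with earlier results of these data known. Genes named are the 10, RHOH, the called genes of the lists (up to 6 each) and, for members that rose, the 3 most alike. Genes of the lists that were not called are named where they bear on the 10 genes or passed without both replicate 1 arrays. This was decided after their values were seen. Alternatives were other scalings, filters, variance models, probe set rules, arrays left out and a replicate block. Same-numbered arrays deviated together at correlations of 0.54, 0.37 and 0.07 between induced and uninduced RhoH cells. Between RhoH and GFP cells these were -0.03 to 0.15. The numbers were not taken to pair the samples in the main fit, and the replicate block is the alternative that uses them. Protein sequences were not used here.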

Additional observations from a re-analysis of the deposited data

How the results depend on the processing

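Of the 10 calls among the 10 genes, 6 held in all 19 alternatives: those of BCL2 and BIRC2 against GFP cells in both RhoH groups, APAF1 with 4-OHT and APAF1 in uninduced cells against GFP. The genes called over the whole table moved more. For induced against uninduced cells the count of 558 was 190 with only the 6 arrays compared, 950 with array weights, 953 after a second quantile normalization and 304 to 666 with 1 array left out. For induced RhoH against GFP cells, 664 became 1176 with array weights and 279 to 861 with 1 array left out, and for uninduced RhoH against GFP, 2258 became 4326 and 1450 to 2670. Of the 10 genes, the 2 called with 4-OHT became 1 (APAF1) with only the 6 arrays compared, with all probe sets tested and without both RhoH replicate 1 arrays, and 1 to 2 with 1 array left out. The 2 called between induced RhoH and GFP became 4 without both replicate 1 arrays, with APAF1 and BMF added. The 6 called between uninduced RhoH and GFP became 3 without both replicate 1 arrays and 3 to 7 with 1 array left out. It was 3 without uninduced replicate 1 or 3 or GFP replicate 1 or 2. With the replicate block, 684, 820 and 2558 genes were called in the 3 comparisons and 2, 2 and 5 of the 10. The call of MCL1 between uninduced RhoH and GFP was lost there (-0.40, adjusted p = 0.0510), and the block changed no other call among the 10.

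Differences that changed sign were all small and not called. Induced against uninduced, with 1 array left out, BCL2 ran from -0.10 to 0.03, BBC3 from -0.07 to 0.20 and BAX from -0.02 to 0.22. Induced RhoH against GFP, MCL1 ran from -0.15 to 0.02 and was 0.00 after a second quantile normalization, BCL2L11 from -0.01 to 0.26 and PMAIP1 from -0.09 to 0.32. Uninduced RhoH against GFP, BBC3 ran from -0.04 to 0.23 and was -0.04 without both replicate 1 arrays, and BMF ran from -0.06 to 0.14. The cause was not tested for any of these changes. Neither scaling alternative moved the median of all genes by more than 0.02 in size.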
